A study of Danio rerio with 6 samples.

Results

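Eph receptors and ephrins were described in the enveloping layer (EVL), the outermost epithelial sheet of the zebrafish embryo, and in the remaining cells of the same embryos at 6 hpf (hours after fertilisation). Members were the genes whose names begin with eph or efn, then a or b, then a digit, which gave 31 of the 31953 genes in the files. Of these, 17 are receptors (9 EphA and 8 EphB genes) and 14 are ligands (9 ephrin-A and 5 ephrin-B genes). All cells came from Tg(krt18:krt18-GFP) embryos, in which a keratin joined to GFP is made under the control of krt18. GFP-positive (EVL) cells gave 3 libraries and GFP-negative (non-EVL) cells gave 3, after pronase treatment, vortexing and sorting of pools of about 1500 embryos, with 10000 GFP-positive cells sorted. The non-EVL group is a mixture of the embryo's other cell types, and the labels do not say whether each library had its own clutch or sort. The p-values therefore rest on the spread among 6 libraries, some of which may be technical.

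Eph proteins are receptor tyrosine kinases, and ephrins are their membrane-bound ligands. Ephrin-A proteins are held by a lipid anchor and ephrin-B proteins cross the membrane with a short cytoplasmic tail that ends in a binding site for PDZ domains. Because both partners sit in cell membranes, contact between neighbouring cells sends a forward signal into the receptor's cell and a reverse signal into the ligand's cell, and the pathway is best known for keeping cell populations apart, for boundaries between hindbrain segments and between somites, and for guiding axons and migrating cells.

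Reads counted over all genes came to 32187658, 38326835 and 34537749 in GFP-positive replicates 1, 2 and 3, and to 36734889, 38903847 and 46144557 in GFP-negative replicates 1, 2 and 3. Members took between 10931 and 21083 of these reads per library. The label of the sort was borne out by its markers, since 11 of 11 EVL genes (keratins, cldne, ppl and others) were higher in GFP-positive cells. Among them krt18 is no independent check, since cells were sorted on a GFP made under its control. Of 4 endoderm and dorsal forerunner genes, 3 (sox32, sox17 and foxj1a) were also higher in GFP-positive cells and gata5 was not called, while 3 of 4 germ cell genes and 2 of 5 ectoderm and pluripotency genes were lower. Of 7 mesoderm and margin genes, 4 dorsal organizer genes and the 2 of 4 yolk syncytial layer genes that could be tested, 0 were called (limma). An unadjusted p under 0.05 was found for 2 of the mesoderm genes, against 3678 of all 15971 tested genes. In bulk libraries, fewer cells of a type and less RNA per cell cannot be told apart.

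Across the family, 1 ephrin was higher in EVL cells and the rest of the tested members showed no change that passed the test. Values are given as normalised reads, whole reads per gene divided by the library's size factor. A member was tested where its value reached 10 in at least 3 libraries, and was called at a Benjamini-Hochberg adjusted p under 0.05 over all 15971 genes that passed this filter (limma). Of the 17 receptors 12 passed the filter, and of these 0 were called higher and 0 lower. Of the 14 ephrins 11 passed, and of these 1, efnb3b, was called higher and 0 were called lower. Over all tested genes 8.80% were called higher, 0.676% lower and 9.47% in either direction, so 1 member in 23 is below the background share of higher calls. The median log2 fold change was 0.27 over the tested receptors and 0.25 over the tested ephrins, with -0.06 over all tested genes beside them. With libraries scaled to their size alone these medians moved to -0.04 and -0.06, against -0.36 over all genes. Such scaling shifts all genes by nearly the same amount, so it cannot test the distance of these medians from that of all genes. With 1 library left out, the median ranged from 0.0038 to 0.36 over receptors and from 0.058 to 0.33 over ephrins. Over all genes it then ranged from -0.06 to -0.03. The 2 receptors with an unadjusted p under 0.05, epha4b and epha7, were not called by edgeR, DESeq2 or limma-voom either. Over all 15971 tested genes, 3678 had an unadjusted p under 0.05 (limma).

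The ephrin-B gene efnb3b (ENSDARG00000042277) encodes a transmembrane ligand, known in the mouse as a midline cue for growing axons. GFP-positive replicates 1, 2 and 3 held 894, 664 and 468 normalised reads of efnb3b. GFP-negative replicates 1, 2 and 3 held 136, 30.3 and 43.0. The groups were far apart, the lowest EVL library standing at 468 and the highest non-EVL library at 136, and GFP-negative replicate 1 stood above the other non-EVL libraries. The EVL mean was 676 ± 213 and the non-EVL mean was 69.9 ± 57.9 (SD, n = 3 each), a log2 fold change of 3.51 (SE 0.55, 95% interval 2.24 to 4.77; limma, adjusted p = 0.00523), or 11.4-fold. In order of fold, efnb3b was number 725 of the 1405 genes called higher, whose median fold was 11.9, so its change was of ordinary size among them. It was called in each of the 18 alternative fits, with log2 fold changes between 3.07 and 4.14. The symbol table lists this identifier as EFNB3. Reads of 50 nt that match a duplicate gene equally well could be counted for either or neither.

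**Figure D1:**
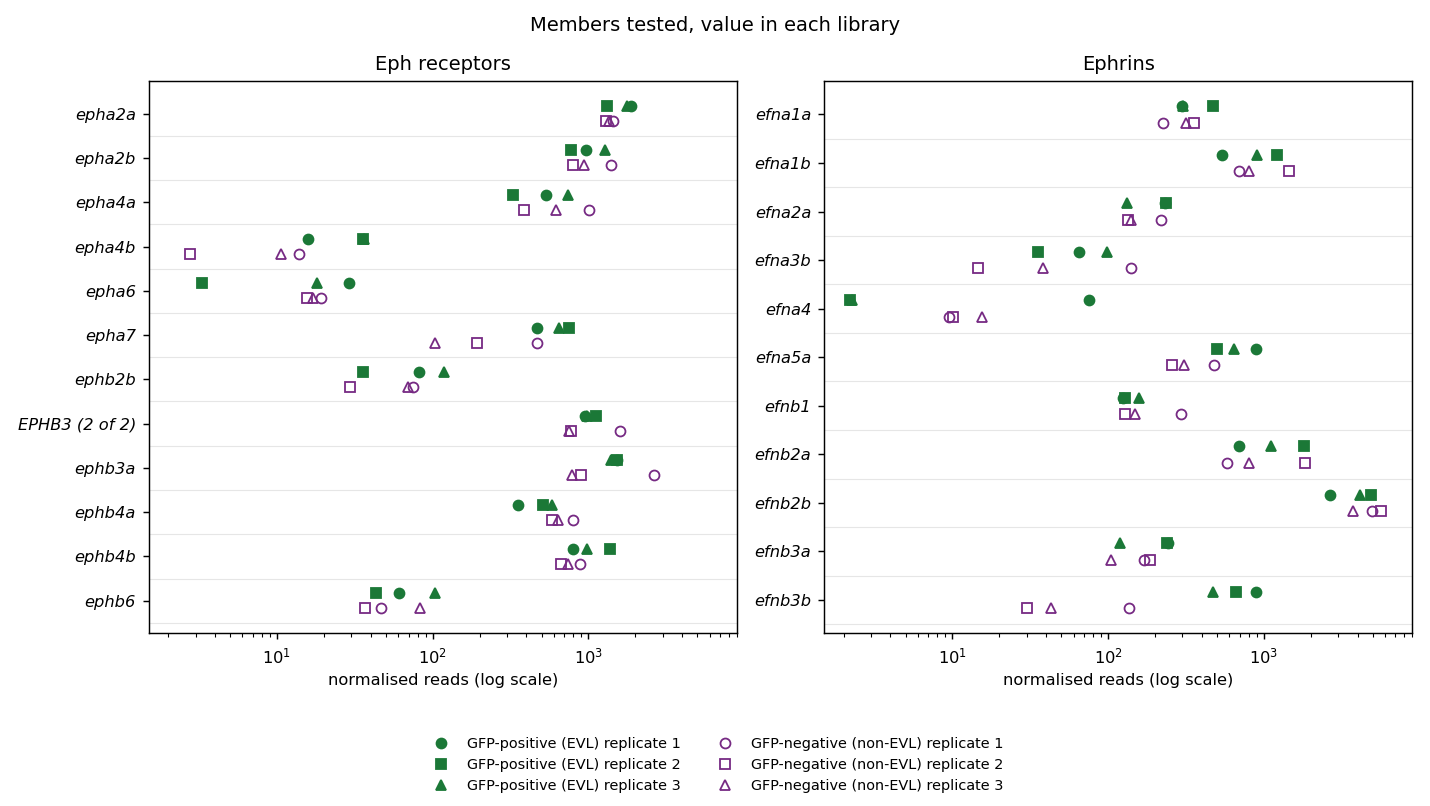
Normalised reads (horizontal, log scale) of the 23 tested members in each library, receptors on the left and ephrins on the right, with filled symbols for the 3 GFP-positive (EVL) libraries above open symbols for the 3 GFP-negative (non-EVL) libraries. For efnb3b the EVL libraries lie between 468 and 894 and the non-EVL libraries between 30.3 and 136, while for most other members the groups overlap.

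Its duplicate, efnb3a, had 242, 238 and 119.5 normalised reads in GFP-positive replicates 1, 2 and 3, and 171, 187 and 105 in GFP-negative replicates 1, 2 and 3. The groups overlapped, and the log2 fold change of 0.34 (95% interval -0.55 to 1.24) was not called (limma, adjusted p = 0.656).

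The other ephrin-B genes had values of the same order in both groups. In zebrafish efnb2a is known as an artery gene and for its role at somite and hindbrain boundaries. It had 689, 1819 and 1104 normalised reads in GFP-positive replicates 1, 2 and 3, against 579, 1841 and 798 in GFP-negative replicates 1, 2 and 3. Replicate 2 was the highest of its group on both sides, and the spread within a group was larger than the distance between the groups (log2 fold change 0.23, 95% interval -0.86 to 1.33; limma, adjusted p = 0.816). Its duplicate efnb2b held 2672, 4903 and 4162 in GFP-positive libraries and 4935, 5634 and 3752 in GFP-negative libraries. The interval of its log2 fold change, -0.90 to 0.28, stayed within 2-fold both ways (limma, adjusted p = 0.522). The transmembrane ligand gene efnb1 had 125, 128 and 159 in GFP-positive libraries and 294, 128 and 149 in GFP-negative libraries, where replicate 1 alone stood higher. Its adjusted p was 0.607 (limma).

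Among ephrin-A genes, efna5a came nearest to a call. Its protein is a lipid-anchored ligand known in chick and mouse for mapping retinal axons. GFP-positive replicates 1, 2 and 3 held 888, 499 and 647 normalised reads, and GFP-negative replicates 1, 2 and 3 held 475, 257 and 306. Each EVL library was above each non-EVL library, although the lowest EVL value and the highest non-EVL value lay close together. Means were 678 ± 196 and 346 ± 114 (SD, n = 3 each), a log2 fold change of 0.98 (SE 0.32, 95% interval 0.25 to 1.70; limma, adjusted p = 0.106), or 1.97-fold. DESeq2 called it (adjusted p = 0.0428), as did limma without GFP-negative replicate 1 (adjusted p = 0.0498), and the range over all alternatives was 0.0250, with the replicate number as a block, to 0.309.

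The remaining tested ephrin-A genes overlapped between the groups. Ephrin-A1 is a well-known ligand of EphA2 in mammals, and zebrafish have duplicates of its gene. For efna1b the values were 536, 1218 and 902 normalised reads in GFP-positive libraries and 698, 1459 and 797 in GFP-negative libraries, with replicate 2 again the highest on both sides (limma, adjusted p = 0.850). For efna1a they were 298, 471 and 301 in GFP-positive libraries and 224, 356 and 314 in GFP-negative libraries, and the interval of the log2 fold change, -0.44 to 0.94, stayed within 2-fold both ways. Values for efna2a lay between 133 and 236 in GFP-positive libraries and between 134 and 219.8 in GFP-negative libraries.

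The low ephrin-A genes were measured poorly. For efna3b, GFP-positive libraries ranged from 35.4 to 98.1 normalised reads, and GFP-negative libraries from 14.7 to 139.9. The gene listed as EFNA4 (efna4 in the symbol table) had 75.1, 2.21 and 2.26 in GFP-positive libraries and 9.56, 10.1 and 15.5 in GFP-negative libraries, so its mean in EVL cells rested on GFP-positive replicate 1. The sign of its fitted change depended on the model, with a log2 fold change of -0.43 in limma and 1.19 in DESeq2, and it was called in neither (adjusted p = 0.875 and 0.650).

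**Figure D2:**
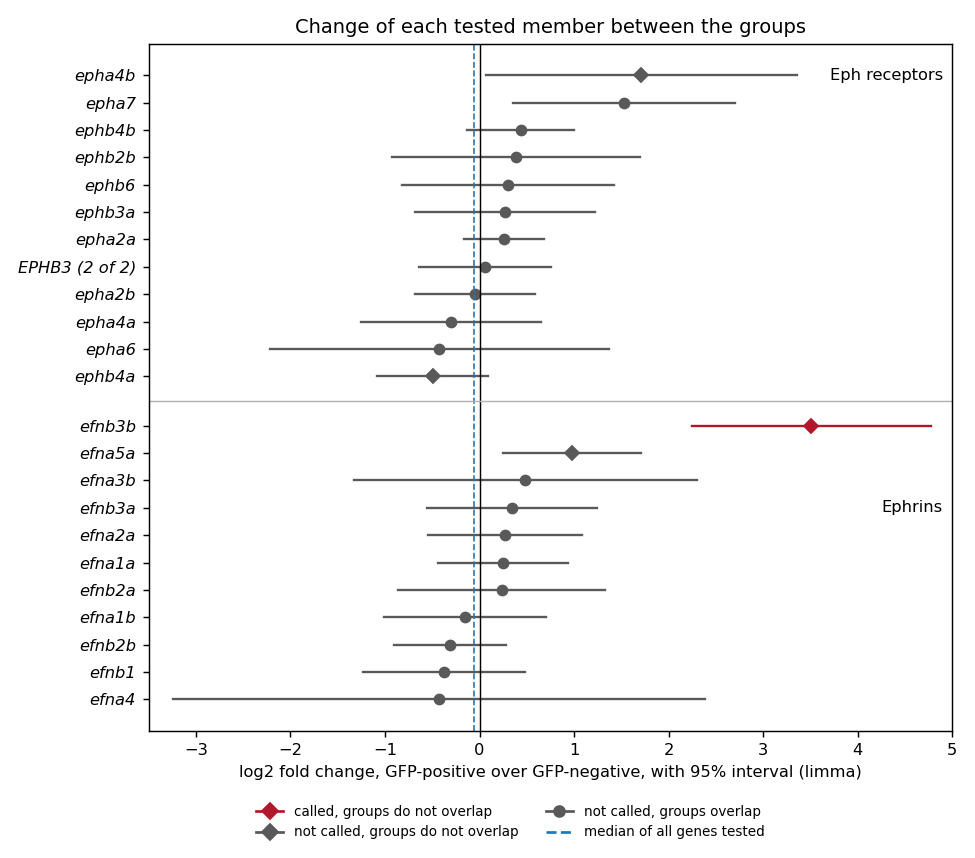
Log2 fold change (horizontal) of each tested member, GFP-positive over GFP-negative, with its 95% interval from limma; receptors are above the line and ephrins below it, diamonds mark members whose libraries do not overlap between groups, and the dashed line is the median of all tested genes, -0.06. The lower bound of efnb3b, 2.24, lies above the estimates of the other members, of which epha4b is next at 1.71.

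Among EphA receptors, 0 of 6 tested were called (limma), and the 2 nearest to a call were both higher on average in EVL cells. The gene epha7, whose receptor is known from neural tissue in mouse and chick, had 465, 753 and 652 normalised reads in GFP-positive replicates 1, 2 and 3, against 471, 194 and 104 in GFP-negative replicates 1, 2 and 3. GFP-negative replicate 1 was level with the lowest EVL library, so the groups overlapped, while the other 2 non-EVL libraries were well below all EVL libraries. Means were 623 ± 146 and 256 ± 191 (SD, n = 3 each), with a log2 fold change of 1.53 (95% interval 0.35 to 2.70; limma, adjusted p = 0.117). Without GFP-negative replicate 1 the log2 fold change was 2.10 and the gene was called (limma, adjusted p = 0.0127).

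The receptor gene epha4b had 15.8, 35.4 and 36.1 normalised reads in GFP-positive libraries and 13.9, 2.76 and 10.6 in GFP-negative libraries. The groups did not overlap, but the lowest EVL and the highest non-EVL library were nearly equal and the reads were few (log2 fold change 1.71, 95% interval 0.07 to 3.35; limma, adjusted p = 0.2003). Its duplicate epha4a, a receptor gene known in zebrafish for sharpening hindbrain segment borders, had 535, 329 and 738 in GFP-positive libraries and 1015, 385 and 621 in GFP-negative libraries. These values overlapped and the fitted change was in the opposite direction (log2 fold change -0.30; limma, adjusted p = 0.719).

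EphA2 is the Eph receptor best known from mammalian epithelia, and both zebrafish duplicates were well measured in each library. epha2a held 1876, 1324 and 1761 in GFP-positive libraries and 1441, 1302 and 1355 in GFP-negative libraries. The gene listed as EPHA2 (2 of 2), epha2b in the symbol table, held 964, 768 and 1273 in GFP-positive libraries and 1401, 797 and 933 in GFP-negative libraries. Groups overlapped for both genes, and both intervals of the log2 fold change, -0.17 to 0.69 for epha2a and -0.68 to 0.59 for epha2b, stayed within 2-fold both ways (limma, adjusted p = 0.457 and 0.936). epha6 had few reads, between 3.32 and 29.0 normalised reads in GFP-positive libraries and between 15.6 and 19.1 in GFP-negative libraries.

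Among EphB receptors, 0 of 6 tested were called (limma). Of these 0 had an unadjusted p under 0.05, against 3678 of all 15971 tested genes. ephb4a, which in zebrafish marks veins and binds the ephrin-B2 ligands, had 356, 508 and 579.7 normalised reads in GFP-positive replicates 1, 2 and 3, against 798, 582 and 636 in GFP-negative replicates 1, 2 and 3. Each EVL library was below each non-EVL library, the closest pair being 579.7 and 582 (log2 fold change -0.50, 95% interval -1.08 to 0.09; limma, adjusted p = 0.295). Its duplicate ephb4b had 797, 1383 and 978 in GFP-positive libraries and 884, 663 and 744 in GFP-negative libraries, with a fitted change in the opposite direction (log2 fold change 0.43, 95% interval -0.13 to 1.00; limma, adjusted p = 0.343).

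ephb3a had 1523, 1518 and 1401 normalised reads in GFP-positive libraries, against 2623, 894 and 787 in GFP-negative libraries. The EVL libraries were close to each other and lay between GFP-negative replicate 1 and the other 2 non-EVL libraries (log2 fold change 0.27; limma, adjusted p = 0.7503). Without GFP-negative replicate 1 the log2 fold change was 0.82 and the gene was called (limma, adjusted p = 0.0409). The gene listed as EPHB3 (2 of 2) showed the same arrangement, with 952, 1111 and 981 in GFP-positive libraries and 1597, 771 and 746 in GFP-negative libraries (limma, adjusted p = 0.930). ephb2b lay between 35.4 and 118 in GFP-positive libraries and between 29.4 and 74.7 in GFP-negative libraries. ephb6, whose mammalian counterpart lacks kinase activity, lay between 43.2 and 104 and between 36.7 and 83.2.

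Libraries that do not overlap between groups were found in 4 of the 23 tested members (efnb3b, efna5a and epha4b higher and ephb4a lower in EVL cells), against 30.9% of all tested genes, so this share was below the background. Of the 22 members that were not called, the 95% interval stayed within 2-fold both ways in 5 (epha2a, epha2b, EPHB3 (2 of 2), efna1a and efnb2b). It reached 4-fold in at least 1 direction in 5 others (epha4b, epha6, epha7, efna3b and efna4), for which a large difference could not be detected or set aside at this depth and spread.

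One library shaped several of these values. GFP-negative replicate 1 was the highest of the 3 non-EVL libraries in 11 of 12 tested receptors and in 5 of 11 tested ephrins, and in 38.9% of all tested genes. Summed over receptors, GFP-positive replicates 1, 2 and 3 held 7683, 7829 and 8680 normalised reads, and GFP-negative replicates 1, 2 and 3 held 10424, 5709 and 6145. The sums over ephrins, 6715, 10225 and 8101 in the GFP-positive libraries and 7893, 10051 and 6472 in the GFP-negative libraries, did not set GFP-negative replicate 1 apart. Without that replicate 2 receptors (epha7 and ephb3a) and 2 ephrins (efnb3b and efna5a) were called higher (limma), against 0 and 1 with all libraries. Over all genes 1286 of 15971 were called higher without GFP-negative replicate 1. It also stood apart in some cell type markers. Its sum over ectoderm and pluripotency markers was 48427 normalised reads, against 111014 and 102629 in GFP-negative replicates 2 and 3. The mesoderm sums were close, at 56009, 59027 and 61825 in GFP-negative replicates 1, 2 and 3, while single mesoderm markers went both ways. GFP-negative replicate 1 held 6084 of tbx6, against 659 and 1170, and 8210 of ta, against 13824 and 13378. Its sums over endoderm and forerunner markers and over dorsal organizer markers, 7117 and 17915, were the highest of the non-EVL libraries. Some of this was shared by GFP-positive replicate 1. Its ectoderm and pluripotency sum was 32081, against 81931 and 71205 in GFP-positive replicates 2 and 3. It also held the most tbx6 of its group, 3486 against 991 and 2097, and the least ta, 4250 against 5591 and 9430. Its endoderm and forerunner sum, 19966, and dorsal organizer sum, 9191, were instead the lowest of the GFP-positive libraries. The part of cell mixture in the receptor values of GFP-negative replicate 1 was not tested.

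In the balance between duplicate genes the scaling between libraries cancels, except for an added 1 that weighs on genes with few reads. For 6 duplicate pairs with both genes tested, the log2 ratio of the gene ending in a to the one ending in b was taken within each library. Before this 1 was added to both normalised values, and all pair ratios given here include it. Groups were compared with the exact permutation test, two-sided, whose smallest possible p with 3 libraries against 3 is 0.10. Pairs were taken from names that differ in a final a or b, so EPHB3 (2 of 2), which has no such name in the tables used, was not paired with ephb3a. The ratio did not overlap between groups in 3 pairs, each with an exact permutation p = 0.10 (0.20 adjusted over the 6 pairs). The share of other duplicate pairs with such a ratio was not computed, so the count cannot be called particular to this family. efnb3a was 0.272, 0.359 and 0.257 times efnb3b in GFP-positive replicates 1, 2 and 3, and 1.25, 5.99 and 2.41 times efnb3b in GFP-negative replicates 1, 2 and 3. Each EVL ratio lay below each non-EVL ratio, a difference in log2 ratio of -3.16 (SE 0.67). A pair difference is the log2 fold change of the first gene less that of the second. Here these were 0.34 for efnb3a and 3.51 for efnb3b, so the difference mostly restates the change of efnb3b. Gene lengths were not used, so a ratio does not tell which of the pair is more abundant.

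For the EphB4 pair, ephb4a was 0.447, 0.368 and 0.593 times ephb4b in GFP-positive libraries, against 0.903, 0.877 and 0.856 times in GFP-negative libraries. The non-EVL ratios were close to each other, GFP-negative replicate 1 included, and all lay above the EVL ratios (difference in log2 ratio -0.93, SE 0.20, exact permutation p = 0.10). For the EphA4 pair the log2 ratio of epha4a to epha4b averaged 4.16 in GFP-positive libraries and 6.17 in GFP-negative libraries. The difference was -2.01 (SE 0.60, exact permutation p = 0.10), and it rests on the few reads of epha4b, on which the added 1 weighs. The efna1, efnb2 and epha2 pairs overlapped, with exact permutation p between 0.30 and 0.40.

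**Figure D3:**
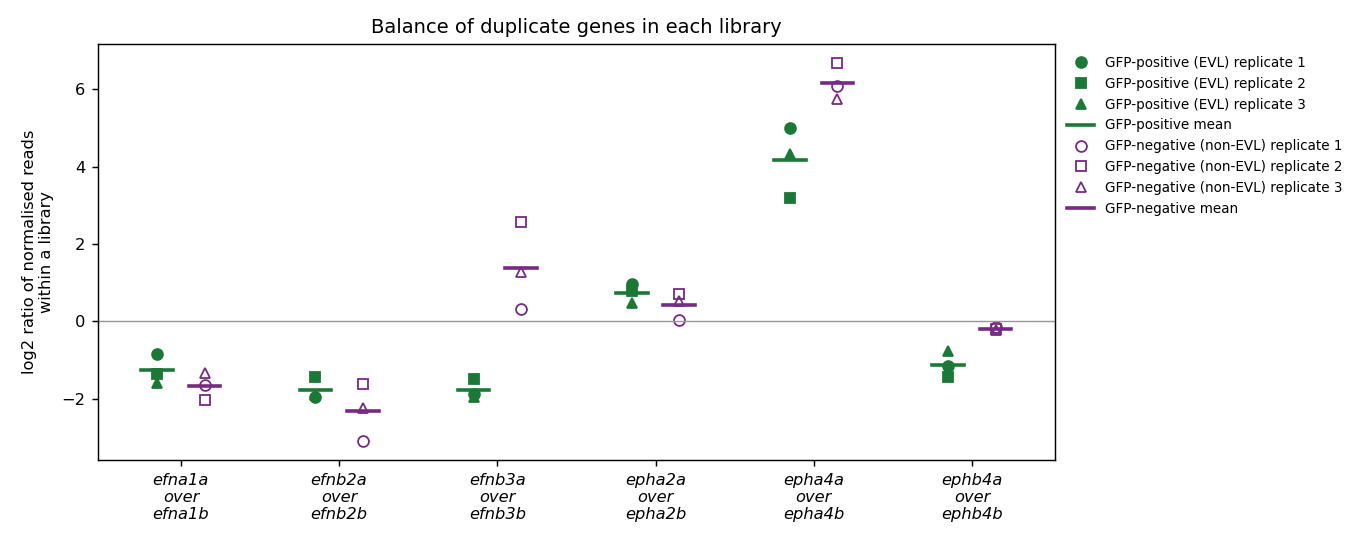
Log2 ratio of normalised reads, with 1 added to each, of the 2 genes of each duplicate pair within a library (vertical), for the GFP-positive (filled, left) and GFP-negative (open, right) libraries, with bars for the group means. The efnb3, epha4 and ephb4 pairs separate between the groups, with mean differences of -3.16, -2.01 and -0.93, and the other 3 pairs overlap.

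Some markers of other cells were, like efnb3b, higher in GFP-positive libraries. Markers of endoderm and dorsal forerunners, cells that lie beneath the EVL at the dorsal margin and arise from it, summed to between 19966 and 32908 normalised reads in GFP-positive libraries and between 3511 and 7117 in GFP-negative libraries, with 0 of the 4 genes at 0 in either group. The forerunner gene foxj1a, a regulator of motile cilia, averaged 732 normalised reads in GFP-positive libraries and 46.3 in GFP-negative libraries. Taking each gene's mean in GFP-positive libraries as 100, efnb3b stood at 132%, 98.3% and 69.3% in GFP-positive replicates 1, 2 and 3, the median EVL marker stood at 169%, 76.8% and 52.4%, and the median endoderm and forerunner marker at 81.6%, 125% and 89.3%. In these libraries efnb3b and the median EVL marker fell from replicate 1 to 3, and the median endoderm and forerunner marker was highest in replicate 2. Of all tested genes 41.6% were highest in GFP-positive replicate 1 of the GFP-positive libraries, so a shared order does not tell sources apart. Single genes of the endoderm and forerunner list differed in this order. With 1069, 567 and 559 normalised reads, foxj1a had the same order as efnb3b. In contrast, sox32, sox17 and gata5 were lowest in GFP-positive replicate 1 and highest in GFP-positive replicate 2. In GFP-negative replicates 1, 2 and 3 efnb3b stood at 20.2%, 4.49% and 6.36%, EVL markers at 2.79%, 3.75% and 3.46%, and endoderm and forerunner markers at 23.0%, 17.6% and 10.7%. In each non-EVL library efnb3b was above the median EVL marker and below the median endoderm and forerunner marker, but single markers differed from these medians. The highest EVL marker stood at 13.6%, 16.9% and 14.7%, above efnb3b in GFP-negative replicates 2 and 3. As a share of its own GFP-positive mean, foxj1a was below efnb3b in GFP-negative replicates 1 and 3 and above it in replicate 2. The part of forerunner cells, or of EVL cells left in the GFP-negative sort, in these values was not tested.

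**Figure D4:**
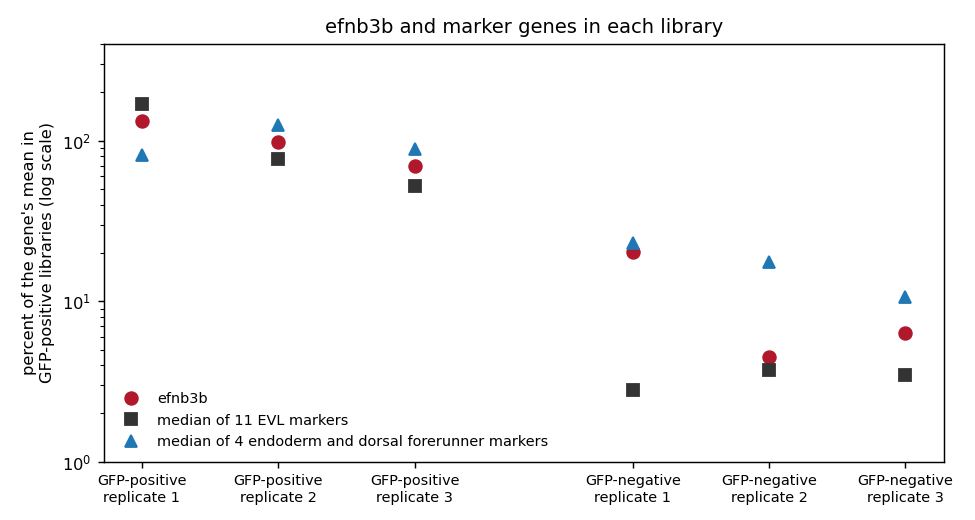
Level of efnb3b (circles), the median of 11 EVL markers (squares) and the median of 4 endoderm and dorsal forerunner markers (triangles) in each library, as a percent of the gene's own mean in GFP-positive libraries (vertical, log scale). In GFP-positive libraries efnb3b runs 132%, 98.3% and 69.3% and in GFP-negative libraries 20.2%, 4.49% and 6.36%.

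A list of partners and effectors of Eph receptors and ephrins held a larger share of called genes than all tested genes. The list was chosen with earlier results of these data known, so this share is a description and no test. Of 77 listed genes for sheddases, adaptors, GTPase regulators, kinases, phosphatases and PDZ or SAM domain partners, 74 were in the files and 67 were tested. Of these 12 were higher and 0 lower in EVL cells (limma), a share of 17.9% against 8.80% of all tested genes, with a median log2 fold change of 0.03 against -0.06 over all tested genes. Without GFP-positive replicate 2, 5 of 67 were higher, against 995 of all 15971 tested genes, so the shares then lay closer together. With libraries scaled to their size alone 11 of 68 were higher and 5 lower, against 1306 and 1187 of all 15949 genes then tested. Many of the listed genes serve other pathways too.

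PDZ domain partners of ephrin-B tails were among the higher genes. pard6a, a polarity gene whose frog counterpart binds ephrin-B1, had 7568, 3425 and 2279 normalised reads in GFP-positive replicates 1, 2 and 3, against 115, 143 and 256 in GFP-negative replicates 1, 2 and 3 (log2 fold change 4.58; limma, adjusted p = 0.000759). pard6b was also higher (log2 fold change 2.43; limma, adjusted p = 0.0155). The scaffold gene grip1 (1.80), the signalling regulator gene rgs3a (2.17) and ptpn13 (2.70), a tyrosine phosphatase with PDZ domains, were higher too, and with the protease gene mmp14a (2.45) they were named after their values were seen. In contrast, the syntenin gene sdcbp2 averaged 9127 ± 1257 normalised reads in the EVL libraries and 9171 ± 516 in the non-EVL libraries (SD, n = 3 each; limma, adjusted p = 0.968). In all, 4 of 14 tested PDZ and SAM domain partners (pard6a, pard6b, grip1 and rgs3a) were higher and 0 lower. All tested genes had 8.80% higher and 0.676% lower. In these counts by role ptpn13 stands with the phosphatases and mmp14a with the sheddases.

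By role, 2 of 8 tested exchange factors, 1 of 10 adaptors, 1 of 5 GTPase activating proteins, 2 of 16 kinases, 1 of 4 phosphatases and 1 of 4 sheddases were higher. The exchange factor gene kalrnb, whose mammalian product acts downstream of EphB receptors in neurons, had 12362, 11028 and 7108 normalised reads in GFP-positive libraries, against 757, 646 and 743 in GFP-negative libraries (log2 fold change 3.79; limma, adjusted p = 0.000647). The exchange factor gene itsn2b (2.91), the adaptor gene nck1a (4.42), the Rac inhibitor gene chn2 (3.07) and the LIM kinase gene limk1b (4.05) were higher as well. For nck1a, chn2 and limk1b the non-EVL means were low, at 12.8, 5.92 and 17.0 normalised reads, against EVL means of 333, 59.3 and 270. The duplicate nck1b, with means of 1176 in EVL and 956 in non-EVL libraries, was not called (limma, adjusted p = 0.460). Of the 6 tested GTPases themselves 0 were called (limma), 1 with an unadjusted p under 0.05, and rac1a had a log2 fold change of 0.12 (limma, adjusted p = 0.723). For kalrnb, pard6a, nck1a and itsn2b the call was made in each of the 18 alternative fits. Calls of 7 others were lost in some of them, most often that of rgs3a, called in 7 of 18.

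**Figure D5:**
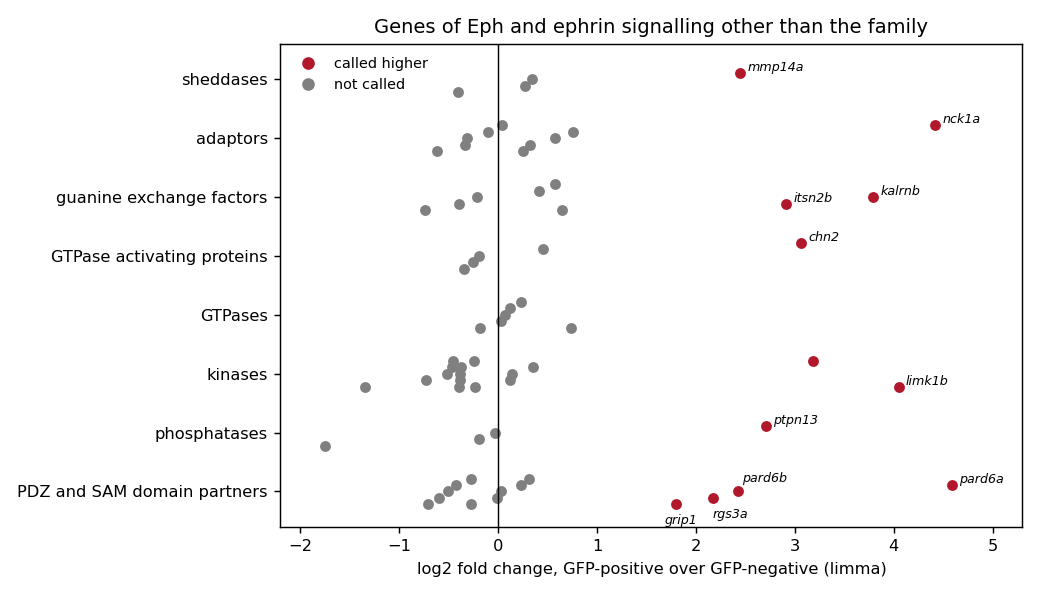
Log2 fold change (horizontal), GFP-positive over GFP-negative, of the 67 tested genes of Eph and ephrin signalling outside the family, grouped by role, with the 12 called higher in red and 11 of them named. Called genes lie between 1.80 and 4.58, and uncalled genes lie between -1.75 and 0.76.

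The 8 members below the filter (epha3, epha4l, epha8, ephb1, ephb2a, efna3a, efna5b and the gene listed as EFNA2 (2 of 2)) had at most 27.1 normalised reads in a library. epha8 had 0 reads in each of the 3 GFP-positive libraries and 2, 5 and 7 reads in GFP-negative replicates 1, 2 and 3. With the GFP-positive group set at the 3 reads that a count of 0 allows, epha8 was 3.25-fold lower in GFP-positive cells. This leaves out the counting error of the GFP-negative reads and the spread between libraries. EFNA2 (2 of 2) had 0 reads in GFP-positive libraries and 2 in all GFP-negative libraries, and efna3a had 1 and 2, too few to compare. ephb2a had 1, 7 and 6 reads in GFP-positive libraries and 4, 22 and 17 in GFP-negative libraries. The libraries of ephb2a overlapped between groups, as did those of the other 4.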

How the data were processed

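The authors sorted cells, made SMARTseq2 libraries and sequenced single-end reads of 50 nt, per the labels' protocols. Trim Galore, STAR 2.6.1d, featureCounts, DESeq2 and danRer10 are named in the submitters' processing notes. The annotation release, the use of strand and the treatment of multi-mapping reads are not given in the sources used here. Deposited signal values are whole reads divided by a size factor per library. Division by the smallest value above 0 in each library turned 100% of values into whole reads, to a tolerance of 0.01. On these reads edgeR with TMM called 1422 genes higher and 52 lower. Reads are not unique molecules.

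Genes that reached 10 in 3 or more libraries were fitted with limma on log2(value + 1), which understates changes of low genes, with trend and robust shrinkage and group as the only term. Called means a Benjamini-Hochberg adjusted p under 0.05. Capitalised names were matched to the symbol table by identifier; 30 of 31 members had an entry. The limma, edgeR, DESeq2 and limma-voom fits were tested on simulated counts, and the other steps were not. Named members were those called, those whose groups or pair ratios did not overlap, and the 2 with most reads per class, and others are named with their range; values by library of efna1a, efna4, efnb1 and epha7 were added after they were seen. Of the pathway list, the rule took the 8 smallest adjusted p and the 2 uncalled genes with most reads, and nck1b was added after its values were seen. A called gene of the pathway list is not reported here by name. Members and lists were chosen with earlier results of these data known. Gene lengths, coordinates and sequences were not used here, so levels are not compared between genes. The tools used were DESeq2 1.42.0, edgeR 4.0.16 and limma 3.58.1, run under R 4.3.3.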

Additional observations from a re-analysis of the deposited data

How the results depend on the processing

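Against 108 genes called lower, 1187 were lower (and 1306 higher, against 1405) with libraries scaled to their size alone, 269 with upper quartile scaling, 62 with TMM scaling, 70 with edgeR and DESeq2 size factors, 52 with edgeR and TMM, 327 with DESeq2 (1994 higher), 41 with limma-voom and 14 to 77 with 1 library left out. Leaving out 1 library gave 0 to 2 receptors higher (2 without GFP-negative replicate 1), 1 to 2 ephrins higher, 5 to 11 pathway genes higher and 0 to 1 lower, the highest without GFP-positive replicate 3. Over all genes 995 to 1304 were higher with 1 library left out. DESeq2 called 2 ephrins higher, and library size alone gave 5 pathway genes lower. Library size alone moved the median log2 fold change of all genes to -0.36 and upper quartile scaling to -0.23. Small log2 fold changes that turned sign were, with library size alone, epha2a at -0.045, EPHB3 (2 of 2) at -0.25, ephb3a at -0.035, efna1a at -0.055, efna2a at -0.034, efnb2a at -0.071 and rac1a at -0.18, and with upper quartile scaling EPHB3 (2 of 2) at -0.12 and rac1a at -0.059. With TMM scaling epha2b stood at 0.00068 and sdcbp2 at 0.034. With edgeR and DESeq2 size factors EPHB3 (2 of 2) stood at -0.032 and efna4 at 1.15, with edgeR and TMM efna4 at 1.17 and sdcbp2 at 0.043, with DESeq2 EPHB3 (2 of 2) at -0.022, efna4 at 1.19 and sdcbp2 at 0.0017, and with limma-voom epha2b at 0.0015 and sdcbp2 at 0.037. With 1 library left out, ranges that crossed 0 were -0.24 to 0.18 for epha2b, -0.65 to 0.050 for epha4a, -1.001 to 0.40 for epha6, -0.035 to 0.87 for ephb2b, -0.13 to 0.42 for EPHB3 (2 of 2), -0.050 to 0.82 for ephb3a, -0.034 to 0.63 for ephb6, -0.42 to 0.17 for efna1b, -0.26 to 1.32 for efna3b, -1.95 to 0.34 for efna4, -0.12 to 0.71 for efnb2a, -0.038 to 0.24 for rac1a and -0.10 to 0.10 for sdcbp2. The cause was not tested. Other pseudocounts and filters changed no call of a member or of a named pathway gene that could still be tested, except that rgs3a was lost with a mean value of at least 50 as the filter.

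Whether the replicate numbers pair the samples was not settled, since the labels do not state a pairing. Over all tested genes the correlations of same-numbered deviations were 0.259, 0.328 and 0.075, and those of unlike numbers lay between -0.269 and -0.017. Each library thus correlated best with its own number over all genes. Over the 23 tested members these correlations were -0.057, 0.412 and 0.165, and those of unlike numbers lay between -0.445 and 0.257. Deviations from a group's mean cancel out within the group, so these correlations depend on each other. The main fit had no replicate term. With a replicate block 1573 genes were higher and 279 lower, 2 ephrins were higher (efna5a at an adjusted p of 0.0250, limma) and of the pathway genes 10 were higher and 1 lower, with the calls of ptpn13 and rgs3a lost (adjusted p = 0.0549 and 0.0555, limma). Levels per coding length and promoter motifs were not run. With 3 libraries a group the 95% interval stayed within 2-fold both ways in 5 of 22 members that were not called, and the 8 members below the filter are limited by depth.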
